A study of Homo sapiens with 18 samples.

Results

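The core of the Hippo pathway was described in hTERT-RPE1 cells, an established human cell line derived from retinal pigment epithelium and kept dividing by telomerase, through the RNA levels of 10 genes. These were NF2, the kinase genes STK3, STK4, LATS1 and LATS2, the coactivator genes YAP1 and WWTR1, and the transcription factor genes TEAD1, TEAD3 and TEAD4. They were taken by symbol from the 57773 genes of the deposited table, and the rule for taking them uses no measured value. All 10 were found in the table, each in 1 row.

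In the Hippo pathway, the kinases encoded by STK3 and STK4 activate the kinases encoded by LATS1 and LATS2, with NF2 (merlin) as a scaffold at the membrane. LATS kinases phosphorylate YAP and TAZ, the products of YAP1 and WWTR1, which are then held in the cytoplasm or degraded. When the kinases are inactive, YAP and TAZ enter the nucleus and act on genes through TEAD proteins, and in epithelial cells the balance follows cell contact, shape and actin tension. The pathway is regulated largely by phosphorylation and localisation, which RNA levels do not measure.

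The study compared 3 treatments, each sorted by flow cytometry into cells with 4N and cells with 2N DNA content. Cytochalasin D, which blocks actin polymerisation and so cytokinesis, was given at a dose and for a time that the labels do not state. ZM447439, an inhibitor of Aurora kinases, was given at 2.5 µM for 24 h, and the third treatment was none. All cells were of the same line, were grown in 10% serum and carried the same Hoechst DNA stain (2 µg/mL for 60 min), and the labels repeat the ZM447439 text on all 18 libraries. Diploid cells that have copied their DNA and tetraploid cells that have not both sort as 4N, and the sort alone does not separate these kinds. The design names 3 biological replicates in each of the 6 groups, and the labels do not say whether replicates came from separate cultures, so the p-values below measure the spread between these libraries.

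Levels are given in RPKM, reads scaled to gene length and library size, as deposited. The steps between low values showed that the length used was the whole genomic span, introns included, so RPKM cannot be compared between genes of unlike exon content. For comparisons between genes the same reads were divided by exon length. In each of the 10 genes all 18 values came out as whole reads at 1 length (within 0.01 reads), and these genes held between 484 reads, in a TEAD4 value, and 15751 reads, in a WWTR1 value. Library sizes implied by the steps were 51135639 to 78294391 reads. In 1033 of 1035 pairs of a gene and a gene wholly inside it, the outer gene held at least the reads of the inner one. The value of a gene therefore also holds reads of genes within its span, on either strand.

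Since RPKM is relative to the whole library of a bulk sample, a lower value cannot tell less RNA per cell from fewer cells that make it. The keratin genes KRT8 (4.38 to 13.0 RPKM) and KRT18 (39.1 to 121 RPKM) marked the cells as epithelial. Of 15 pigment epithelium markers, which include KRT8 and KRT18, 8 passed the floor. Among them were BEST1 (47.1 to 141 RPKM), OTX2 (2.26 to 4.13 RPKM), PMEL (0.443 to 4.64 RPKM) and MITF (0.124 to 0.168 RPKM). RPE65 (at most 0.0356 RPKM) and TYR (at most 0.00275 RPKM) were at or near 0. Reads of other genes within the spans of these markers were not subtracted, so such a value alone does not show that the marker is expressed. Of 8 blood cell markers 2 passed the floor of 0.05 RPKM, LYZ (0.143 to 0.249 RPKM) and CD14 (0.0178 to 0.434 RPKM), while PTPRC was at most 0.00525 RPKM and CD3E and HBB were at 0 in most libraries. The sum of the 8 was 0.533 to 0.691 RPKM in cytochalasin D cells, 0.208 to 0.380 RPKM in ZM447439 cells and 0.204 to 0.317 RPKM in untreated cells. The summed level of 18 G2/M genes was 34.4 to 35.0 RPKM in cytochalasin D 4N cells, 60.4 to 83.9 RPKM in ZM447439 4N cells and 394 to 414 RPKM in untreated 4N cells. In 2N cells it was 13.2 to 23.4 RPKM with cytochalasin D, 17.8 to 39.6 RPKM with ZM447439 and 120 to 161 RPKM untreated. The drugs thus differed from no treatment in the cell-cycle genes as well. The part of this in the results below was not tested. In each group 1 library deviated most from the others of its group over all genes: number 1 in the 4 drug groups and number 3 in both untreated groups. These are the 6 libraries that stood apart. They were picked from these same data, so a fit without them has a spread that is small by choice. A difference that passes only in that fit is weak support for any gene below.

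Differences were tested with limma on log2(RPKM + 0.05) over the 24347 genes whose mean reached 0.05 RPKM, with Benjamini-Hochberg (BH) adjustment over all of them and a threshold of 0.05. Adding 0.05 before taking logs understates changes of low genes such as TEAD4. STK3, with a span of over 0.5 Mb, stayed under this floor in all libraries and was tested instead on log2(RPM + 0.5), where RPM is scaled to library size alone, over 17974 genes. Errors of differences are standard errors (SE), and levels are means ± SD (n = 3).

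**Figure D1:**
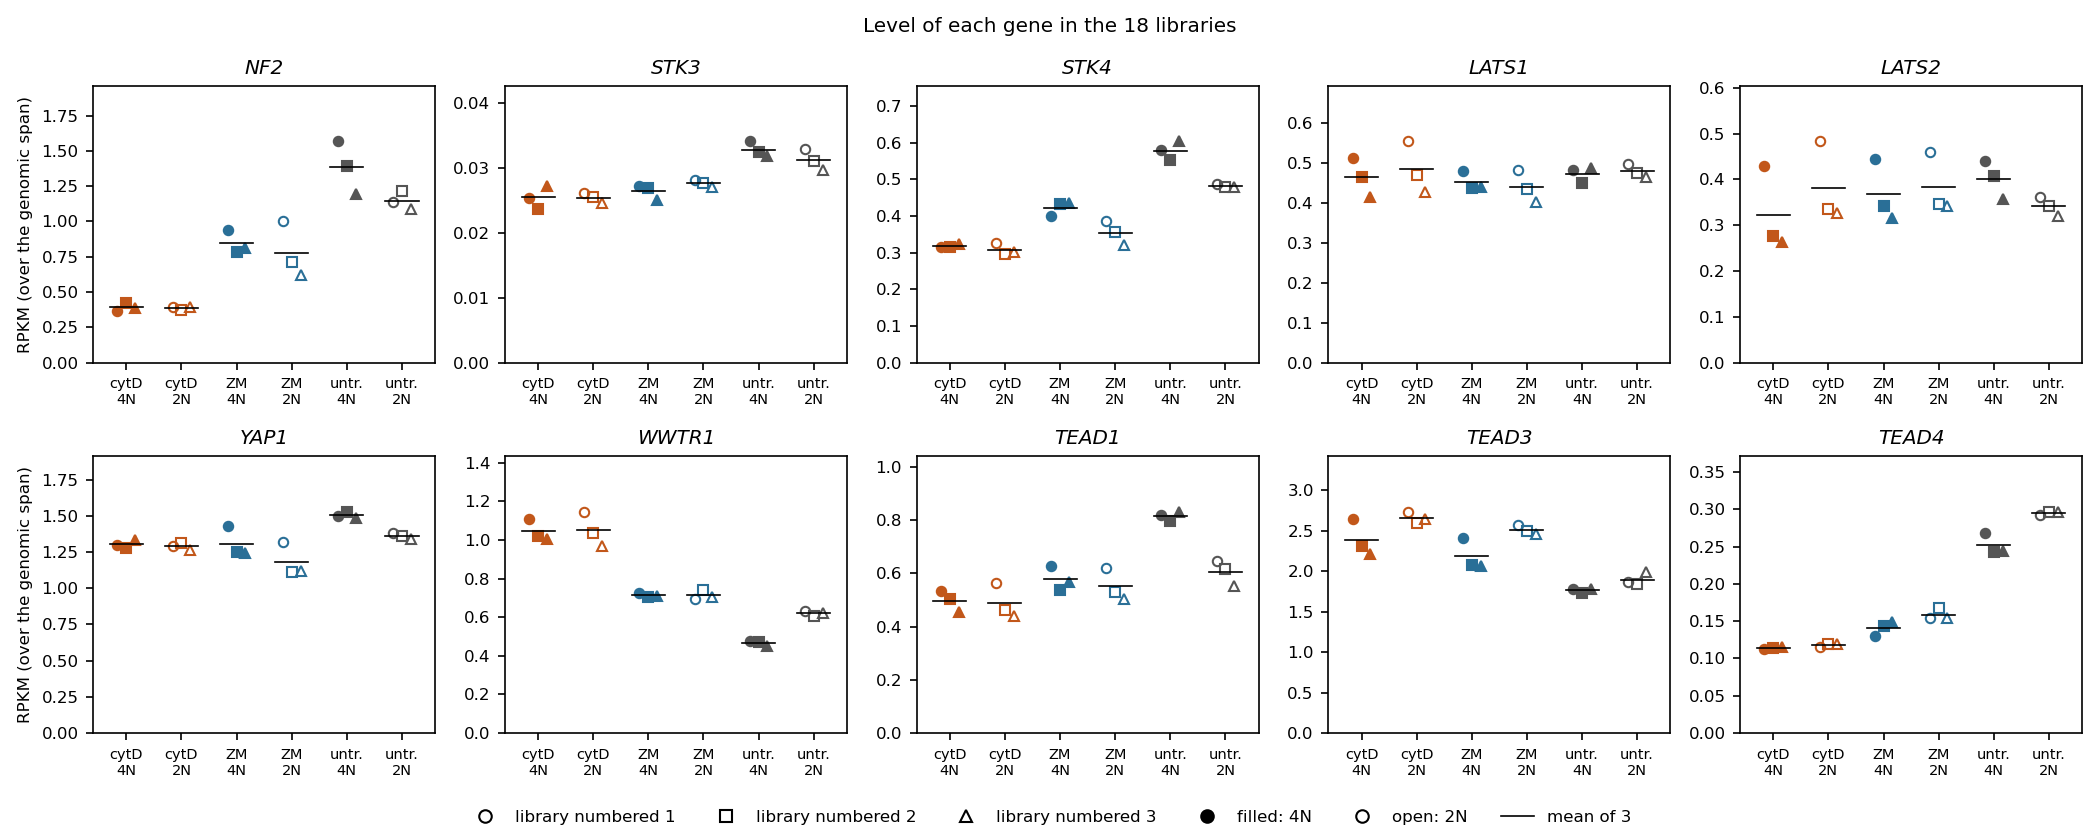
RPKM over the genomic span (vertical axes, linear from 0) of the 10 genes in the 18 libraries, grouped by treatment and sort (horizontal axes); symbols mark the library number, filled symbols 4N and open symbols 2N cells, and lines the mean of 3. NF2, STK3, STK4 and TEAD4 lie lowest with the drugs (NF2 at 0.363 to 0.420 RPKM in cytochalasin D 4N cells), and WWTR1 and TEAD3 lie highest with them. The libraries numbered 1 stand highest for LATS2 in all 6 groups.

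Most of the 10 genes differed between drug-treated and untreated cells, and each gene that passed in more than 1 of these 4 comparisons kept its direction. In 4N cells, 7 of the 9 genes above the floor differed between cytochalasin D and no treatment, where 60.8% of all genes tested did, and the same 7 differed between ZM447439 and no treatment, where 46.3% of all genes did. WWTR1 and TEAD3 rose with either drug, and NF2, STK4, YAP1, TEAD1 and TEAD4 fell. In 2N cells, 6 of 9 differed with cytochalasin D (56.2% of all genes) and 6 of 9 with ZM447439 (45.2% of all genes). LATS1 and LATS2 did not pass in any of these 4 comparisons. With STK3 included on the RPM scale, where STK3 fell in all 4, the counts were 8 and 8 of 10 genes in 4N cells (74.3% and 59.9% of all genes) and 7 and 7 of 10 in 2N cells (70.7% and 59.1%). The shares lie at or somewhat above those of all genes, and the comparisons share the untreated libraries. The median difference of the 9 genes was -0.30 with cytochalasin D and -0.20 with ZM447439 in 4N cells, against -0.05 and -0.03 over all genes.

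Between the sorts fewer genes differed. In untreated cells 4 of 9 did (14.6% of all genes): STK4 and TEAD1 rose in 4N cells, and WWTR1 and TEAD4 fell. Under ZM447439 only STK4 of the 9 differed (4.09% of all genes, 995), just inside the threshold. That count of all genes moved with single libraries: it was 3455 without ZM447439 2N replicate 1, 158 and 152 without ZM447439 2N replicate 2 or 3, and 130 and 146 without ZM447439 4N replicate 2 or 3. Under cytochalasin D 0 of 9 and 0 of all 24347 genes passed in limma (0%), where 1297 genes had an unadjusted p under 0.05. Between the drugs, 4 of 9 genes differed in 4N cells (32.7% of all genes) and the same 4 in 2N cells (27.7%): WWTR1 was higher with cytochalasin D than with ZM447439, and NF2, STK4 and TEAD4 were lower.

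**Figure D2:**
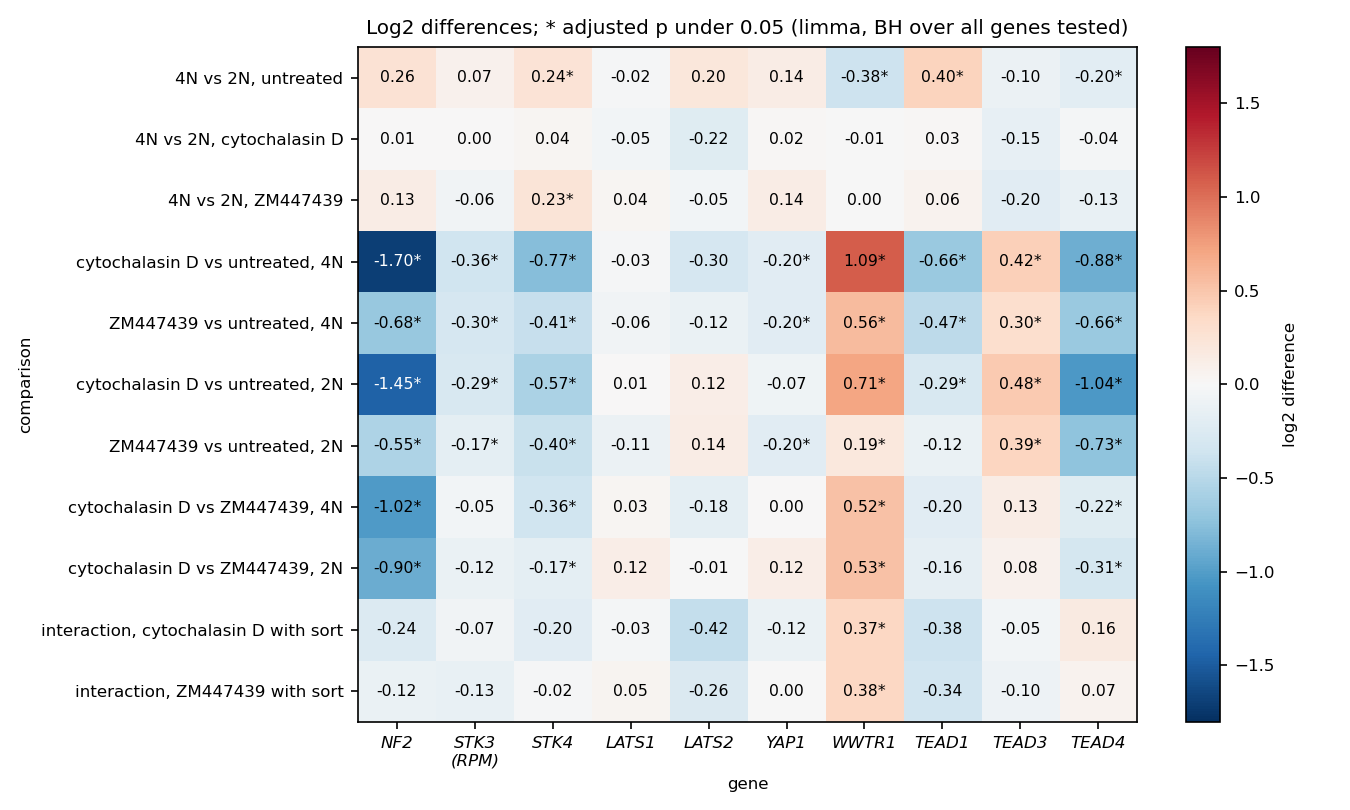
Log2 difference (colour and printed value; blue lower, red higher in the first-named group) of each gene (columns) in each comparison (rows); an asterisk marks an adjusted p under 0.05 in limma, and STK3 is on the RPM scale. The 4 rows of drug against untreated carry most marks, with -1.70 for NF2 and 1.09 for WWTR1 at the extremes, and the row of 4N against 2N cells under cytochalasin D carries none.

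The bases upstream of genes that moved with the drugs are shown because several of the genes rose or fell with both drugs. RefSeq promoters (GRCh38.p14, a later build than the hg19 build of the data) matched 7 of the 10 genes with 10 start sites. The 250 bases before each start were searched on both strands for the TEAD motif CATTCC, the CHR motif TTTGAA, the E2F motif TTTCCCGC and the GC box GGGCGG, and for the CArG box by name. The motifs do not overlap one another in the letters shown, and each match is in capitals on the strand of the gene. NF2 and STK4 fell with both drugs, WWTR1 and TEAD3 rose, and YAP1 has the only TEAD motif of the 10 windows.
NF2, chr22:29603383-29603632, plus strand: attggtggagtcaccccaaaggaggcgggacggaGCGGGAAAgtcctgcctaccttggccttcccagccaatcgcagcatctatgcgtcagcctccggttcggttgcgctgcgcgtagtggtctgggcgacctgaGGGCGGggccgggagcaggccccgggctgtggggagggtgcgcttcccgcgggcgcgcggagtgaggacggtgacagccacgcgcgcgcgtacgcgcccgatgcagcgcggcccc
STK4, chr20:44966262-44966511, plus strand: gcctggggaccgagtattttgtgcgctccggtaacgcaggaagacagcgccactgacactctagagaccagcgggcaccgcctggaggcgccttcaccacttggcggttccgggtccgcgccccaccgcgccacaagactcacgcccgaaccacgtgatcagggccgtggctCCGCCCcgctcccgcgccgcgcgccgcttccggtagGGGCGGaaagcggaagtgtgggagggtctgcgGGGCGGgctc
YAP1, chr11:102110197-102110446, plus strand: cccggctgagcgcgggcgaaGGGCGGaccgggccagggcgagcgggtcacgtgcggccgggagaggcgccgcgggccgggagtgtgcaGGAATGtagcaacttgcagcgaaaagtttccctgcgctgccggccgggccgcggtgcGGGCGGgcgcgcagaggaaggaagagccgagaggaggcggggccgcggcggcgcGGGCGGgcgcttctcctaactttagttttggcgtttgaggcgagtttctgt
WWTR1, first start, chr3:149703274-149703523, minus strand: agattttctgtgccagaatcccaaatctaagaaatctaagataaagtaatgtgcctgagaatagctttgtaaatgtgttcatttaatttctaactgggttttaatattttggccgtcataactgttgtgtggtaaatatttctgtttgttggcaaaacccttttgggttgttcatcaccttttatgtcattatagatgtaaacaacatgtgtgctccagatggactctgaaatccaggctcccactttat
WWTR1, second start, chr3:149658026-149658275, minus strand: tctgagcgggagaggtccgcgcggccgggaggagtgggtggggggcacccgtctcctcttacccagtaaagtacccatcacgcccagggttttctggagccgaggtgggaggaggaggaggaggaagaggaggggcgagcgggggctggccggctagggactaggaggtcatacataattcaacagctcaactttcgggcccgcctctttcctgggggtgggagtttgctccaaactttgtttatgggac
TEAD3, chr6:35497080-35497329, minus strand: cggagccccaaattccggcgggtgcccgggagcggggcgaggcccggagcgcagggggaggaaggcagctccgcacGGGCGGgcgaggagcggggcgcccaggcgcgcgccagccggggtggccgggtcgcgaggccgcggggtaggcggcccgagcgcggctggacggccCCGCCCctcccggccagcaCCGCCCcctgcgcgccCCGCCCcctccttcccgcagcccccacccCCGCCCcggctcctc

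NF2 held 1 E2F motif and 1 GC box, STK4 held 3 GC boxes, YAP1 held 1 TEAD motif and 3 GC boxes, and TEAD3 held 5 GC boxes. None of the 5 motifs stood in either WWTR1 window, of which the first is 35.2% and the second 62.0% G and C. Of 35116 RefSeq promoters, 11.9% held the TEAD motif, 13.3% the CHR motif, 1.4% the E2F motif, 42.6% a GC box and 1.2% a CArG box in the same 250 bases. A match is a string of letters and no measured site.

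NF2, the merlin gene, fell most among the 10. It had 0.363, 0.420 and 0.389 RPKM in cytochalasin D 4N cells, 0.935, 0.786 and 0.814 RPKM in ZM447439 4N cells and 1.57, 1.39 and 1.20 RPKM in untreated 4N cells. The 3 groups did not overlap: every cytochalasin D library lay below every ZM447439 library, and these lay below every untreated library. NF2 fell by 1.70 on the log2 scale with cytochalasin D in 4N cells (SE 0.14, adjusted p = 9.07e-08), a 3.54-fold lower mean, and by 0.68 with ZM447439 (SE 0.14, adjusted p = 0.000991).

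In 2N cells, NF2 had 0.391, 0.373 and 0.395 RPKM with cytochalasin D, 1.01, 0.709 and 0.623 RPKM with ZM447439 and 1.14, 1.21 and 1.09 RPKM untreated. The same order held without overlap, with ZM447439 number 1 close to the untreated libraries. NF2 fell by 1.45 with cytochalasin D (SE 0.14, adjusted p = 5.55e-07) and by 0.55 with ZM447439 (SE 0.14, adjusted p = 0.00420; 0.0578 in a fit of these 2 groups alone). Between the drugs NF2 was lower with cytochalasin D, with a log2 difference of -1.02 in the 4N sort (SE 0.14, adjusted p = 7.85e-05) and -0.90 in the 2N sort (SE 0.14, adjusted p = 0.000308). NF2 in untreated 4N cells was 1.38 ± 0.186 RPKM, against 1.14 ± 0.0638 RPKM in untreated 2N cells. This difference of 0.26 did not pass (95% interval -0.04 to 0.55, adjusted p = 0.256), but it passed without the 6 libraries that stood apart (difference 0.32, adjusted p = 0.0264). Over the 18 libraries the genes that ran most like NF2 were SH2D4A, PGK1 and MAP4 (Pearson r of log2 values 0.99 each), a description in which libraries of 6 unlike groups are pooled.

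STK4, which encodes the Hippo kinase MST1, had 0.315, 0.316 and 0.324 RPKM in cytochalasin D 4N cells, 0.401, 0.432 and 0.435 RPKM in ZM447439 4N cells and 0.580, 0.552 and 0.604 RPKM in untreated 4N cells. The 3 treatments were apart from each other, with cytochalasin D lowest. STK4 fell by 0.77 with cytochalasin D (SE 0.06, adjusted p = 6.22e-08) and by 0.41 with ZM447439 (SE 0.06, adjusted p = 6.39e-05). STK4 in 2N cells had 0.327, 0.297 and 0.301 RPKM with cytochalasin D, 0.387, 0.356 and 0.321 RPKM with ZM447439 and 0.487, 0.479 and 0.479 RPKM untreated. There the highest cytochalasin D library stood just above the lowest ZM447439 library, and both drugs lay below no treatment. The falls were 0.57 (SE 0.06, adjusted p = 1.64e-06) and 0.40 (SE 0.06, adjusted p = 9.03e-05).

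As tested here, without a replicate block, STK4 was the 1 gene of the 10 that passed between sorts under more than 1 treatment. Under ZM447439 it passed only just. It rose in untreated 4N over untreated 2N cells by 0.24 (SE 0.06, adjusted p = 0.0139), without overlap, and without untreated 4N replicate 3 this call was lost (adjusted p = 0.0606). In ZM447439 4N over ZM447439 2N cells it was higher by 0.23 (SE 0.06, adjusted p = 0.0496), also without overlap, but most alternatives put this value outside the threshold (adjusted p = 0.331 with these 2 groups alone). The difference of -0.17 between cytochalasin D and ZM447439 in 2N cells (adjusted p = 0.0453) was as near the threshold and was lost with no filter (adjusted p = 0.0628) and without most single libraries. The 3 genes whose log2 values ran most like STK4 over the 18 libraries were ANP32E, PBK and NDC1 (r 0.99 each). Beside this, the summed G1/S level of 16 genes was 18.7 to 20.4 RPKM in cytochalasin D 4N cells, 51.9 to 57.9 RPKM in ZM447439 4N cells and 155 to 159 RPKM in untreated 4N cells, and its part in the fall of STK4 was not tested.

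STK3, which encodes the related kinase MST2, was spread over a long span and had 675 to 1397 reads per library. Its RPM were 13.7, 12.9 and 14.8 in cytochalasin D 4N cells, 14.7, 14.6 and 13.6 in ZM447439 4N cells and 18.5, 17.6 and 17.3 in untreated 4N cells. All drug libraries lay below all untreated libraries, and the 2 drugs overlapped. On log2(RPM + 0.5), STK3 fell by 0.36 with cytochalasin D (SE 0.06, adjusted p = 5.77e-05) and by 0.30 with ZM447439 (SE 0.06, adjusted p = 0.000423). STK3 in 2N cells had 14.2, 13.8 and 13.3 RPM with cytochalasin D, 15.2, 15.0 and 14.7 RPM with ZM447439 and 17.8, 16.8 and 16.1 RPM untreated, again with all drug libraries below the untreated ones. It fell by 0.29 (SE 0.06, adjusted p = 0.000487) and by 0.17 (SE 0.06, adjusted p = 0.0230). The last call was lost without untreated 2N replicate 1 or ZM447439 2N replicate 2 or 3 (adjusted p = 0.107, 0.0522 and 0.0668). Per kilobase of exon, STK4 stood at 6.02 ± 0.0585 and STK3 at 1.34 ± 0.0707 RPM in untreated 2N cells, so STK4 was the more abundant by this measure.

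In the fit used here, without a replicate block, LATS1 and LATS2, the kinases that phosphorylate YAP and TAZ, passed in none of the 9 comparisons between groups. LATS1 had 0.512, 0.465 and 0.415 RPKM in cytochalasin D 4N cells, 0.478, 0.437 and 0.438 RPKM in ZM447439 4N cells and 0.482, 0.448 and 0.486 RPKM in untreated 4N cells. In the 2N sort LATS1 had 0.553, 0.469 and 0.427 RPKM with cytochalasin D, 0.482, 0.435 and 0.403 RPKM with ZM447439 and 0.496, 0.474 and 0.464 RPKM untreated. All neighbouring groups overlapped in the order of means. LATS1 differences ran from -0.11 to 0.12, with 95% intervals inside -0.30 to 0.31. Without the 6 libraries that stood apart, 1 of them passed: LATS1 fell by 0.19 with ZM447439 in 2N cells (adjusted p = 0.0478). RBMS1, OSR2 and TET1 ran most like LATS1, less closely than for the other genes (r 0.86, 0.85 and 0.84).

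LATS2, itself a target gene of YAP and TEAD, had 0.430, 0.277 and 0.262 RPKM in cytochalasin D 4N cells, 0.446, 0.342 and 0.315 RPKM in ZM447439 4N cells and 0.440, 0.408 and 0.358 RPKM in untreated 4N cells. LATS2 in 2N cells had 0.483, 0.334 and 0.328 RPKM with cytochalasin D, 0.461, 0.346 and 0.342 RPKM with ZM447439 and 0.361, 0.343 and 0.320 RPKM untreated. In all 4 drug groups the library numbered 1 was the highest, well above the other two, and the spread within the groups was large. The difference between cytochalasin D and no treatment in 4N cells was -0.30 (95% interval -0.69 to 0.09, adjusted p = 0.167).

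The call changed with the libraries used and with a replicate block. Without the 6 that stood apart, LATS2 fell by 0.57 with cytochalasin D in 4N cells (adjusted p = 4.9e-05) and by 0.32 with ZM447439 in 4N cells (adjusted p = 0.00165), and it was 0.24 higher in untreated 4N than in untreated 2N cells (adjusted p = 0.0203). Without cytochalasin D 4N replicate 1 alone, the first difference also passed. With all 18 libraries, that difference passed with a replicate block by number (adjusted p = 0.0102). With a block by culture the untreated sort difference passed (adjusted p = 0.0154). So did the tests of cytochalasin D and ZM447439 against that sort difference (adjusted p = 0.00926 and 0.0348). The fit without 6 libraries keeps the 2 most alike libraries of each group, so its spread is small by choice. Genes that ran most like LATS2 were TMEM47, MYOF and COL4A2 (r 0.95, 0.95 and 0.94 over 18 libraries), and MYOF is on the list of YAP-TEAD targets used below.

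YAP1 fell by little with the drugs where it passed. It had 1.30, 1.28 and 1.34 RPKM in cytochalasin D 4N cells, 1.43, 1.25 and 1.24 RPKM in ZM447439 4N cells and 1.50, 1.53 and 1.48 RPKM in untreated 4N cells. All drug libraries lay below the untreated ones. YAP1 fell by 0.20 with cytochalasin D (SE 0.06, adjusted p = 0.0142) and by 0.20 with ZM447439 (SE 0.06, adjusted p = 0.0191). In the 2N sort YAP1 had 1.29, 1.31 and 1.26 RPKM with cytochalasin D, 1.32, 1.11 and 1.12 RPKM with ZM447439 and 1.38, 1.36 and 1.34 RPKM untreated, and it fell with ZM447439 by 0.20 (SE 0.06, adjusted p = 0.0202) while the difference with cytochalasin D was -0.07 (adjusted p = 0.339). No drug library of either sort reached the lowest untreated library of its sort. The calls with ZM447439 were also lost without some single libraries: in 4N cells without untreated 4N replicate 2 or ZM447439 4N replicate 2 or 3 (adjusted p = 0.0580, 0.0777 and 0.0803), and in 2N cells without untreated 2N replicate 1 or 2 or ZM447439 2N replicate 2 or 3 (0.0594, 0.0519, 0.0946 and 0.0857). Neither these 2 calls nor that with cytochalasin D in 4N cells held when libraries were rescaled to a common median ratio (adjusted p = 0.0672 for each ZM447439 call and 0.0980 for cytochalasin D) or by quantiles. Under quantile normalization the cytochalasin D difference in 2N cells was 0.02, with the sign turned. Between the untreated sorts YAP1 was higher in 4N cells by 0.14, without overlap, and did not pass in the fit used here. This difference passed with a replicate block by culture (adjusted p = 0.0218) and in a fit of these 2 groups alone (0.0465). Between the ZM447439 sorts YAP1 was also higher in 4N cells by 0.14, which passed with the block by culture (adjusted p = 0.0472). YAP1 reads include those of the antisense gene ENSG00000254422 within its span, 20.4% to 22.1% of the YAP1 reads, and without strand the 2 cannot be told apart. This antisense gene also ran most like YAP1 (r 0.97; the 2 share reads), followed by ELK3 and LRRC49 (r 0.95 and 0.91).

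WWTR1, which encodes TAZ, moved the other way and much further. It had 1.11, 1.02 and 1.01 RPKM in cytochalasin D 4N cells, 0.724, 0.704 and 0.711 RPKM in ZM447439 4N cells and 0.478, 0.472 and 0.449 RPKM in untreated 4N cells. The treatments formed 3 separate bands, with cytochalasin D highest. WWTR1 rose with cytochalasin D by 1.09 (SE 0.06, adjusted p = 1.27e-09), a 2.24-fold higher mean, and with ZM447439 by 0.56 (SE 0.06, adjusted p = 2.32e-06).

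In 2N cells, WWTR1 had 1.15, 1.04 and 0.971 RPKM with cytochalasin D, 0.693, 0.742 and 0.706 RPKM with ZM447439 and 0.633, 0.606 and 0.622 RPKM untreated. The order was the same, with ZM447439 closer to no treatment than in 4N cells. WWTR1 rose by 0.71 (SE 0.06, adjusted p = 1.03e-07) and by 0.19 (SE 0.06, adjusted p = 0.0142). The rise with ZM447439 in 2N cells was lost without ZM447439 2N replicate 2 or untreated 2N replicate 2 (adjusted p = 0.0610 and 0.0520). Between the drugs WWTR1 was higher with cytochalasin D by 0.52 in 4N cells (SE 0.06, adjusted p = 1.51e-05) and by 0.53 in 2N cells (SE 0.06, adjusted p = 2.14e-05).

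In untreated cells WWTR1 fell by 0.38 in 4N cells relative to 2N cells (SE 0.06, adjusted p = 0.000474), with no overlap. Under cytochalasin D the difference between 4N and 2N cells was -0.01 (95% interval -0.13 to 0.12) and under ZM447439 0.00 (95% interval -0.12 to 0.12). As tested here, without a replicate block, WWTR1 was the 1 gene of the 9 that passed the test of the difference between these differences. Cytochalasin D changed it by 0.37 (SE 0.08, adjusted p = 0.0147; 5.49% of all genes passed) and ZM447439 by 0.38 (SE 0.08, adjusted p = 0.0125; 7.36% of all genes). Both tests use the same untreated libraries. With a replicate block by number TEAD1 passed both tests too, and with a block by culture TEAD1 and LATS2 did.

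Of the reads of WWTR1, 10.2% to 13.1% lay in the antisense gene WWTR1-AS1 within its span. Subtracting the reads of such inner genes, an alternative added after the data were seen, changed none of the 41 calls made for the 9 genes above the floor. The genes that ran most like WWTR1 were DENND2B, INTS6-AS1 and THRA (r 0.98 each over 18 libraries). Set against YAP1 per kilobase of exon, WWTR1 stood at 1.07 ± 0.0681 times YAP1 in cytochalasin D 4N cells, 0.732 ± 0.0479 times in ZM447439 4N cells and 0.414 ± 0.0103 times in untreated 4N cells. In 2N cells the ratio was 1.09 ± 0.0863 with cytochalasin D, 0.812 ± 0.0993 with ZM447439 and 0.610 ± 0.0141 untreated. As counted, the 2 coactivator genes were thus close to equal in cytochalasin D cells, and in untreated 4N cells WWTR1 was well below YAP1. Reads of inner genes were not subtracted from this ratio. They made up 20.4% to 22.1% of YAP1 reads but 10.3% to 13.2% of WWTR1 reads, so the ratio would be higher without them in every group. It also rests on exon length while reads were counted over introns too.

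**Figure D3:**
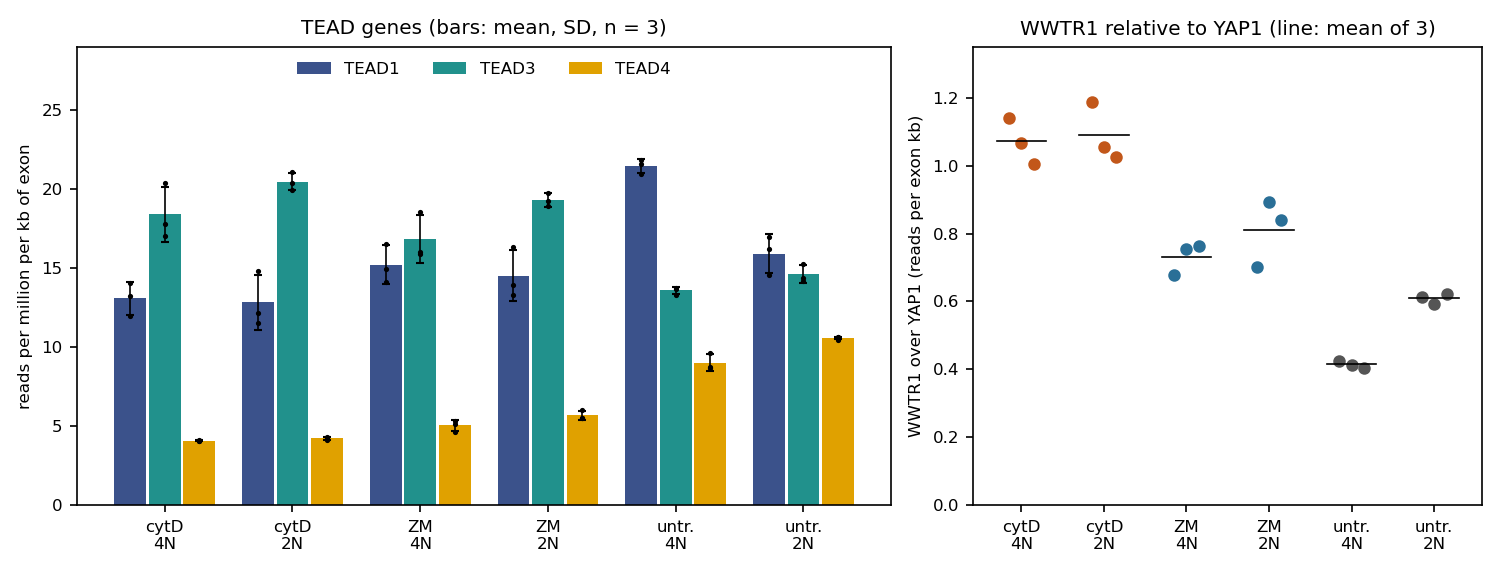
Left, RPM per kilobase of exon for TEAD1, TEAD3 and TEAD4 (vertical axis, from 0; bars are means, error bars SD, n = 3, dots libraries) in the 6 groups; right, the ratio of WWTR1 to YAP1 on the same scale (dots are libraries, lines means). TEAD4 has the lowest bar in every group, TEAD3 stands above TEAD1 in the drug groups but not in untreated cells, and the ratio runs from 0.414 in untreated 4N cells to 1.09 in cytochalasin D 2N cells.

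The TEAD genes, whose proteins bind DNA for YAP and TAZ, did not move as one. TEAD4 fell, TEAD3 rose, and TEAD1 fell with both drugs in 4N cells. TEAD4 had 0.113, 0.113 and 0.115 RPKM in cytochalasin D 4N cells, 0.130, 0.143 and 0.149 RPKM in ZM447439 4N cells and 0.268, 0.243 and 0.244 RPKM in untreated 4N cells. The cytochalasin D libraries lay within a narrow band below all ZM447439 libraries, and both drugs lay far below no treatment. TEAD4 fell by 0.88 with cytochalasin D (SE 0.06, adjusted p = 9.30e-09) and by 0.66 with ZM447439 (SE 0.06, adjusted p = 5.32e-07).

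In 2N cells TEAD4 had 0.115, 0.119 and 0.120 RPKM with cytochalasin D, 0.154, 0.168 and 0.154 RPKM with ZM447439 and 0.293, 0.296 and 0.297 RPKM untreated, again in 3 separate bands. It fell by 1.04 (SE 0.06, adjusted p = 2.91e-09) and by 0.73 (SE 0.06, adjusted p = 3.07e-07). On the RPM scale, with less weight on the added constant, these falls in 2N cells were 1.28 and 0.87. TEAD4 in untreated 4N cells was lower than in untreated 2N cells by 0.20 (log2 difference -0.20, SE 0.06, adjusted p = 0.0312). This did not pass with no filter (adjusted p = 0.0528), under quantile normalization (0.0697), or without any 1 of 5 of the 6 untreated libraries. Nor did it pass with these 2 groups alone (adjusted p = 0.0765) or without the 6 libraries that stood apart (0.0781). Between the drugs TEAD4 was lower with cytochalasin D in both sorts (log2 differences -0.22 and -0.31, adjusted p = 0.00845 and 0.00110), and neither passed in a fit of the 2 groups alone (adjusted p = 0.0979 and 0.0544). The genes that ran most like TEAD4 were TONSL, TONSL-AS1 and TOP3A (r 0.99 each over 18 libraries). With either drug the G1/S and G2/M sums lay below those of untreated cells of the same sort, as TEAD4 did. Between the untreated sorts the G2/M sum went the other way from TEAD4, with means of 405 RPKM in 4N and 147 RPKM in 2N cells. The part of these sums was not tested.

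TEAD3 had 2.64, 2.31 and 2.21 RPKM in cytochalasin D 4N cells, 2.41, 2.08 and 2.06 RPKM in ZM447439 4N cells and 1.78, 1.73 and 1.78 RPKM in untreated 4N cells. All drug libraries stood above all untreated ones, and the 2 drugs overlapped. TEAD3 rose by 0.42 with cytochalasin D (SE 0.07, adjusted p = 7.63e-05) and by 0.30 with ZM447439 (SE 0.07, adjusted p = 0.00234). TEAD3 in 2N cells had 2.73, 2.59 and 2.65 RPKM with cytochalasin D, 2.57, 2.50 and 2.45 RPKM with ZM447439 and 1.87, 1.84 and 1.98 RPKM untreated, and it rose by 0.48 (SE 0.07, adjusted p = 3.07e-05) and by 0.39 (SE 0.07, adjusted p = 0.000272). These drug libraries, too, stood above all untreated ones.

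Within each drug TEAD3 was lower in 4N than in 2N cells, by 0.15 with cytochalasin D and 0.20 with ZM447439 (log2 differences -0.15 and -0.20), without passing (adjusted p = 0.880 and 0.115). The drug libraries numbered 1 were the highest TEAD3 values in all 4 drug groups, and without the 6 libraries that stood apart both differences passed (-0.21 and -0.25, adjusted p = 0.0126 and 0.000978), the one with ZM447439 also without ZM447439 4N replicate 1 alone (-0.27, adjusted p = 0.0281). DOCK6, ARHGDIG and MMP11 ran most like TEAD3 (r 0.98, 0.97 and 0.97).

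TEAD1 had 0.534, 0.503 and 0.455 RPKM in cytochalasin D 4N cells, 0.629, 0.537 and 0.568 RPKM in ZM447439 4N cells and 0.821, 0.797 and 0.831 RPKM in untreated 4N cells. The untreated libraries stood above all drug libraries, with the cytochalasin D ones lowest. TEAD1 fell by 0.66 with cytochalasin D (SE 0.10, adjusted p = 3.19e-05) and by 0.47 with ZM447439 (SE 0.10, adjusted p = 0.00118). In 2N cells it had 0.564, 0.463 and 0.439 RPKM with cytochalasin D, 0.621, 0.531 and 0.505 RPKM with ZM447439 and 0.646, 0.617 and 0.554 RPKM untreated, and the groups overlapped. There it fell by 0.29 with cytochalasin D (SE 0.10, adjusted p = 0.0198), and the difference with ZM447439 was -0.12 (adjusted p = 0.324; difference -0.26, adjusted p = 0.00533 without the 6 libraries that stood apart). The fall with cytochalasin D in 2N cells was lost with these 2 groups alone (adjusted p = 0.0717), under quantile normalization (0.0508), without cytochalasin D 2N replicate 2 or 3 (0.0686 and 0.0925) and without untreated 2N replicate 1 or 2 (0.0776 and 0.0559).

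In untreated 4N cells TEAD1 rose by 0.40 over untreated 2N cells (SE 0.10, adjusted p = 0.0112), with no overlap. Without untreated 2N replicate 3, the lowest of its group, this call was lost (adjusted p = 0.0566). With the drugs, TEAD1 in 4N cells differed from 2N cells by 0.03 and 0.06. The tests of these against the untreated difference gave -0.38 and -0.34 and did not pass (adjusted p = 0.138 and 0.148). Both passed with a replicate block by number (adjusted p = 0.0244 and 0.0312) and with one by culture (0.0314 and 0.0368). CEP120, HYCC1 and KIF5B ran most like TEAD1 (r 0.98, 0.97 and 0.97).

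As shares of these 3 TEAD genes per kilobase of exon, with TEAD2 left aside, TEAD4 made up 11.5% ± 0.958 of the sum in cytochalasin D 4N cells, 13.7% ± 1.72 in ZM447439 4N cells and 20.5% ± 0.868 in untreated 4N cells. TEAD3 made up 51.7% ± 1.13 with cytochalasin D, 45.4% ± 1.37 with ZM447439 and 30.9% ± 0.282 in untreated 4N cells. TEAD1 made up 36.8% ± 0.819 with cytochalasin D, 41.0% ± 0.833 with ZM447439 and 48.7% ± 0.604 in untreated 4N cells. TEAD3 was thus the most abundant of the 3 with either drug in 4N cells, and TEAD1 was in untreated 4N cells. The sum of the 3 was 35.6 ± 2.70 RPM per kilobase with cytochalasin D, 37.1 ± 2.39 with ZM447439 and 44.1 ± 1.00 in untreated 4N cells, and it varied less than its parts. These shares rest on exon length while reads were counted over introns too, so the order between genes carries that limit.

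Other genes of the pathway were read from lists chosen by function. Of 18 partners and upstream kinases of the Hippo kinases tested, 4 rose and 8 fell with cytochalasin D in 4N cells, and 4 rose and 6 fell with ZM447439; the median differences were -0.11 for both, against -0.05 and -0.03 over all genes. The 12 and 10 of 18 that passed stand against 60.8% and 46.3% of all genes. In 2N cells 5 rose and 5 fell with cytochalasin D, and 3 rose and 3 fell with ZM447439, or 10 and 6 of 18, where 56.2% and 45.2% of all genes passed. STK38L, an NDR kinase gene related to the LATS genes, rose with cytochalasin D by 0.81 in 4N and 0.71 in 2N cells, and with ZM447439 by 0.96 in 4N and 1.31 in 2N cells. FRMD6, which encodes a FERM-domain protein like merlin, was 0.459 ± 0.0955 RPKM in cytochalasin D 4N cells and 0.953 ± 0.0814 RPKM in untreated 4N cells and fell by 0.99 (log2 difference -0.99, adjusted p = 0.000127). WWC1, which encodes the scaffold KIBRA, fell with cytochalasin D (log2 differences -0.90 in 4N and -0.73 in 2N cells) and with ZM447439 (-0.38 and -0.44). SAV1, the adaptor of the STK3 and STK4 kinases, rose in 2N cells with cytochalasin D by 0.75 and with ZM447439 by 0.33.

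The STRIPAK complex, a phosphatase assembly that acts against the STK3 and STK4 kinases, had most of its genes lower with the drugs in 4N cells. Of its 17 genes 1 rose and 11 fell in 4N cells with either drug, where 34.2% and 26.8% of all genes fell. In 2N cells 2 rose and 8 fell with cytochalasin D and 1 rose and 5 fell with ZM447439. These 10 and 6 of 17 stand against 56.2% and 45.2% of all genes that passed. In untreated 4N over untreated 2N cells 8 rose and 0 fell, where 9.87% of all genes rose. The median differences were -0.31 with cytochalasin D and -0.26 with ZM447439 in 4N cells, and 0.18 between the untreated sorts. PPP2CA, the catalytic subunit of phosphatase 2A, averaged 2.82 ± 0.207 RPKM in cytochalasin D 4N cells, 3.55 ± 0.0380 RPKM in ZM447439 4N cells and 6.24 ± 0.176 RPKM in untreated 4N cells, and fell with both (log2 differences -1.14 and -0.81, adjusted p = 5.28e-09 and 5.43e-07). STK25, a kinase of the complex, fell as well (-0.64 and -0.47), and was among the 8 higher in untreated 4N cells, by 0.25.

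Of 13 junctional and LIM-domain regulators, 2 rose and 7 fell with cytochalasin D and 1 rose and 6 fell with ZM447439 in 4N cells (medians -0.37 and -0.19, against -0.05 and -0.03 over all genes). These 9 and 7 of 13 stand against 60.8% and 46.3% of all genes that passed. In 2N cells 2 rose and 6 fell with cytochalasin D, and 1 rose and 5 fell with ZM447439. There the 8 and 6 of 13 stand against 56.2% and 45.2% of all genes. RASSF1, which encodes a scaffold that binds STK3 and STK4, averaged 0.691 ± 0.181 RPKM in cytochalasin D 4N cells, 0.997 ± 0.0283 RPKM in ZM447439 4N cells and 3.04 ± 0.293 RPKM in untreated 4N cells (log2 differences -2.08 and -1.56, adjusted p = 4.16e-07 and 1.75e-05). RASSF1 also rose in untreated 4N over untreated 2N cells, by 0.95. FAT1, a large protocadherin, and SCRIB, a polarity scaffold, fell with cytochalasin D in 4N cells (-1.86 and -0.97).

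Of 14 partners and turnover genes of YAP and TEAD, 2 rose and 8 fell with cytochalasin D and 1 rose and 6 fell with ZM447439 in 4N cells (medians -0.45 and -0.22). The 10 and 7 of 14 that passed compare with 60.8% and 46.3% of all genes. In 2N cells 4 rose and 6 fell with cytochalasin D, and 3 rose and 7 fell with ZM447439. There 10 and 10 of 14 passed, where 56.2% and 45.2% of all genes did. VGLL4, a competitor of YAP for TEAD binding, averaged 1.10 ± 0.0379 RPKM in cytochalasin D 4N cells, 0.521 ± 0.106 RPKM in ZM447439 4N cells and 0.358 ± 0.0399 RPKM in untreated 4N cells. It rose with both drugs (1.50 and 0.48, adjusted p = 2.41e-07 and 0.00886). YWHAH, a 14-3-3 protein gene of the family that holds phosphorylated YAP in the cytoplasm, fell by 2.38 and 1.73 (log2 differences -2.38 and -1.73), and was higher in untreated 4N than in untreated 2N cells by 0.65. Under ZM447439 the fourth TEAD gene, TEAD2, was lower in 4N than in 2N cells (log2 difference -0.38, adjusted p = 0.00887).

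**Figure D4:**
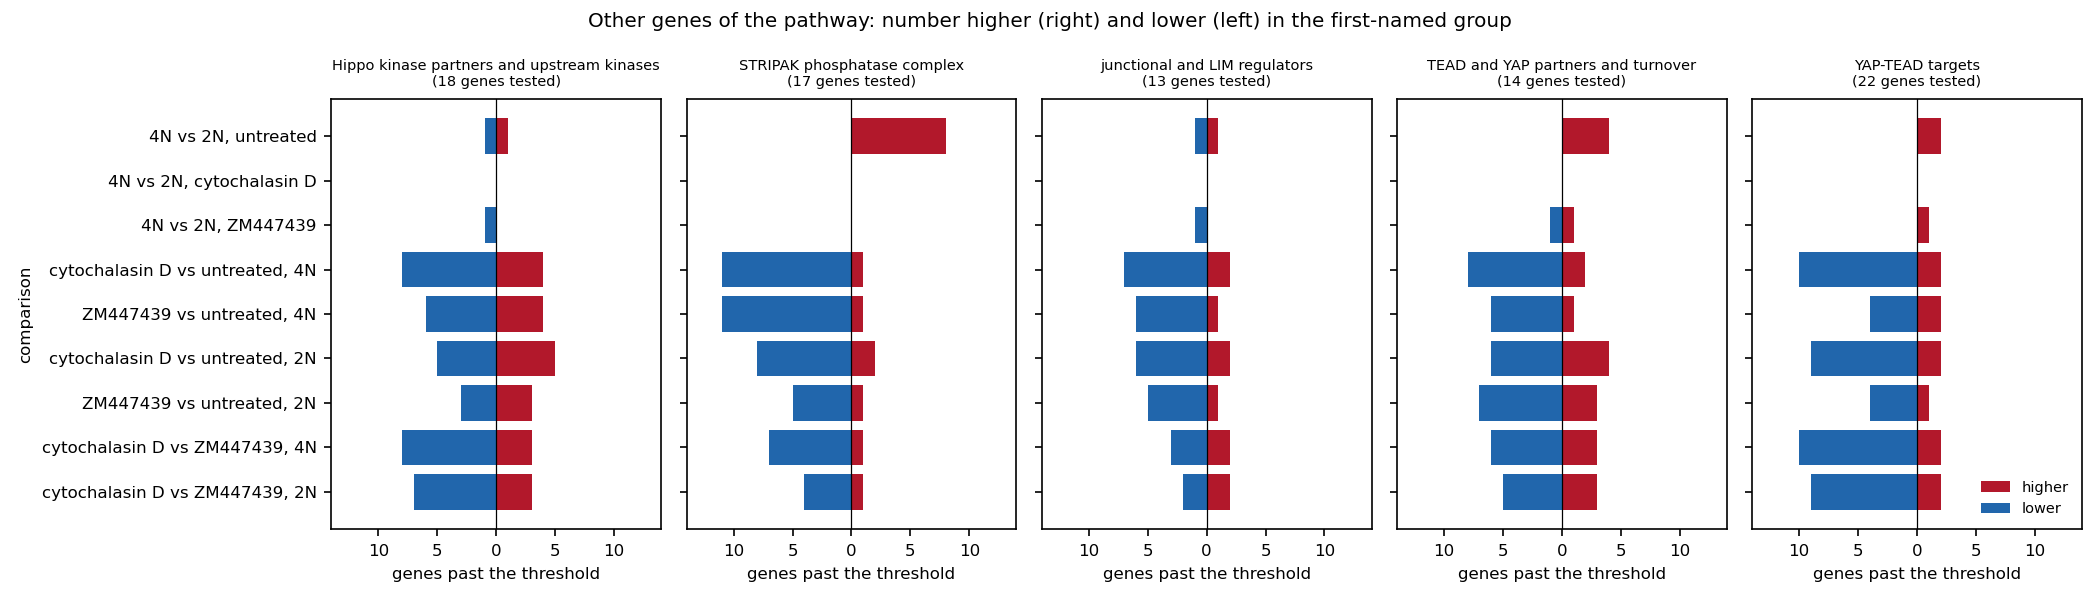
Number of genes past the threshold (horizontal axes; red to the right higher, blue to the left lower in the first-named group) in 5 lists of other pathway genes, for the 9 comparisons between groups (rows). STRIPAK genes run to 11 lower with either drug in 4N cells and to 8 higher in untreated 4N cells, and 0 genes of these lists passed between the sorts under cytochalasin D.

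YAP-TEAD targets are given here only beside the factors. Of 22 tested, which include LATS2, 2 rose and 10 fell with cytochalasin D in 4N cells and 2 rose and 9 fell in 2N cells, while with ZM447439 2 rose and 4 fell in 4N cells and 1 rose and 4 fell in 2N cells. In 4N cells the 12 of 22 that passed with cytochalasin D stand against 60.8% of all genes, the 10 that fell against 34.2%, and the 6 of 22 that passed with ZM447439 against 46.3%. In 2N cells the 11 and 5 of 22 that passed with cytochalasin D and ZM447439 stand against 56.2% and 45.2% of all genes. Between the drugs, 2 were higher and 10 lower with cytochalasin D in 4N cells and 2 and 9 in 2N cells. In these comparisons 32.7% and 27.7% of all genes passed. ANKRD1, a commonly used readout of YAP, averaged 8.40 ± 4.31 RPKM in cytochalasin D 4N cells and 30.9 ± 1.66 RPKM in untreated 4N cells (log2 difference -1.99, adjusted p = 0.000412). FJX1 fell with both drugs in 4N cells (-2.37 and -1.04).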

How the data were processed

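RNA-seq was made from polyA RNA with a kit that does not mark strand, per the labels' protocols. CASAVA 1.8.2, TopHat2, edgeR and the hg19 build are named in the submitters' processing notes; the counter and annotation are not given in the sources used here. The authors deposited RPKM values for 57773 Ensembl genes in 18 libraries, and symbols were matched for 52338 of them (90.6%). Reads per gene and library sizes were recovered from the steps between low values, of which 88.8% to 89.4% came out whole (within 0.05 reads) with the GENCODE 29 genomic span as length, against 12.1% to 13.1% with exon length and 10% by chance.

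All 18 libraries entered 1 fit in limma 3.58.1 (R 4.3.3) with a variance trend on log2(RPKM + 0.05), 1 mean for each of 6 groups, 24347 genes and BH adjustment; it was tested on simulated data. STK3 was tested on log2(RPM + 0.5). Counting error alone came to 4.55% of the lowest TEAD4 value and 0.797% of the highest WWTR1 value. Named were the 10 genes, up to 4 genes per list and comparison with the largest difference past the threshold, and the 3 genes most like each of the 9 tested. The genes and lists were chosen with earlier results of these data known. Alternatives were other floors and added constants, other scalings, blocks, fits of the compared groups alone, and libraries left out. Same-numbered libraries of 1 treatment correlated at 0.0351 to 0.282 in their deviations, not all over 0.1, and numbers were not used as pairs. That cut does not show that these libraries are independent, and the sort results depend on the choice. With a block by culture LATS2 and YAP1 also passed between the untreated sorts. LATS2 and TEAD1 then also passed in both tests against the untreated sort difference.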

Additional observations from a re-analysis of the deposited data

Results flagged for a closer look

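Without a replicate block, WWTR1 alone of the 9 genes passed the test of a 4N to 2N difference that differs between treatments. The adjusted p was 0.0147 for cytochalasin D and 0.0125 for ZM447439 (limma, BH over 24347 genes). WWTR1 was lower in untreated 4N than in untreated 2N cells, and the sorts were close to equal with either drug. On the log2 scale, the signed difference with the drug minus the untreated one was 0.372 with cytochalasin D and 0.376 with ZM447439. WWTR1 averaged 1.05 RPKM in cytochalasin D 4N cells and 1.05 RPKM in cytochalasin D 2N cells, 0.713 and 0.714 RPKM in ZM447439 4N and 2N cells, and 0.466 and 0.621 RPKM in untreated 4N and 2N cells. Both values rest on the same 6 untreated libraries.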

How the results depend on the processing

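Of the 41 differences past the threshold among the 9 genes above the floor, 0 changed direction wherever an alternative tested them (26 with the floor of 0.5 RPKM, 7 with each block by culture), and 41 of 41 held with a smaller added constant, on RPM or with inner genes subtracted. Fewer held under quantile normalization (35), a common median ratio (37), no filter (38) or fits of the compared groups alone (32); each cause was not tested. The 4 falls of STK3 on the RPM scale, under 25 alternatives chosen after seeing the data, kept their direction, and the one with ZM447439 in 2N cells lost the threshold under quantile normalization (adjusted p = 0.0953), in a fit of the 2 groups alone (0.0654) and without 3 single libraries. Among the others, YAP1 with cytochalasin D in 2N cells turned to 0.02 (0.0197) under quantile normalization. With log2(RPKM + 0.5) and a floor of 0.5 RPKM, fewer of the 10 genes are tested, and 2 passed between the untreated sorts, 0 between the ZM447439 sorts and 2 between the drugs in each sort. For the ZM447439 sorts 0 also passed with no filter, a common median ratio, quantile normalization, a block by number, no trend or those groups alone, which left 2 between the drugs in 2N cells. Without the 6 libraries that stood apart, 1 gene passed between the cytochalasin D sorts, 3 between the ZM447439 sorts and 7 between the drugs in 4N cells, and 2 and 3 in the tests of cytochalasin D and ZM447439 against the untreated sort difference; over all genes the cytochalasin D sorts then gave 937 and the ZM447439 sorts 6671, against 0 and 995. Leaving out 1 library gave 2 to 4 genes between the untreated sorts and 0 to 2 between the ZM447439 sorts; over all genes it gave 130 to 3455 between the ZM447439 sorts, and 850 to 1805 and 993 to 3088 in the tests of cytochalasin D and ZM447439 against the untreated sort difference (1336 and 1793 with all libraries). The lowest of these were without untreated 2N replicate 3 and ZM447439 4N replicate 2, and 3088 was without ZM447439 2N replicate 1. The replicate block by number kept 40 of 41, lost STK4 between the ZM447439 sorts (adjusted p = 0.0502) and gave 2 genes in each test against the untreated sort difference, WWTR1 and TEAD1 (TEAD1 adjusted p = 0.0244 with cytochalasin D and 0.0312 with ZM447439); LATS2 with cytochalasin D in 4N cells passed (0.0102). A replicate block by culture gave 3 and 3 there, with TEAD1 (0.0314 and 0.0368) and LATS2 (0.00926 and 0.0348). With this block LATS2 (0.0154) and YAP1 (0.0218) also passed between the untreated sorts, and YAP1 between the ZM447439 sorts (0.0472). The same block with RPM, a choice made after seeing the data, gave 7, 1 and 3 genes between the sorts of untreated, cytochalasin D and ZM447439 cells. It gave 3 and 3 in those tests. Depth limits TEAD4 and STK3 most, whose lowest values rest on 484 and 675 reads.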
